A study of Mus musculus with 2 samples.

Results

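The 10 genes described here encode the machinery that decides whether a cell leaves the G1 phase of its cycle: the D-type cyclins Ccnd1, Ccnd2 and Ccnd3, their kinases Cdk4 and Cdk6, the kinase inhibitors Cdkn1a (p21), Cdkn1b (p27), Cdkn2c (p18) and Cdkn2d (p19), and the retinoblastoma gene Rb1. They were chosen by name, and all 10 were found among the 22060 genes of the count table. In the T403A library, set against the WT library, Ccnd1, Ccnd2 and Cdkn1a were lower and Ccnd3, Cdkn2c and Cdkn2d were higher. Cdk4, Cdk6, Cdkn1b and Rb1 were within 1.5-fold.

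The series holds RNA from bone marrow-derived macrophages of 2 genotypes, with 1 library from cells carrying the T403A substitution in STAT2 (threonine 403 replaced by alanine) and 1 library from wild-type (WT) cells. STAT2 works in the gene-activating complex ISGF3, which forms after type I interferon binds its receptor. Both libraries came from C57BL/6 mice aged 8 weeks, whose marrow was kept in M-CSF for 7 days so that progenitors became macrophages. The cells received no treatment and are labelled 0 h. The labels do not say how the substitution was introduced, whether both alleles carry it, or how many animals a library holds.

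D-type cyclins are made in response to growth factors such as M-CSF. They bind CDK4 or CDK6, and the active kinases phosphorylate the retinoblastoma protein, which then releases E2F transcription factors that switch on genes for DNA replication. INK4 proteins, among them p18 and p19, bind CDK4 and CDK6 and block cyclin binding. Cip/Kip proteins, p21 and p27, bind cyclin-kinase complexes and are best known as inhibitors of CDK2. Macrophages grown with M-CSF divide at first and leave the cycle as they mature, so marrow cultures can hold both dividing and resting cells.

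All 3 D-type cyclins carry a short stretch near the start of the protein that binds the retinoblastoma protein. Its 5 codons are shown in capitals within the first 48 coding bases of each gene, because this is the part that links the cyclins to Rb1 (GENCODE M21 transcripts on GRCm38). The motif covers coding bases 13 to 27 in Ccnd1 and 7 to 21 in Ccnd2 and Ccnd3.
Ccnd1: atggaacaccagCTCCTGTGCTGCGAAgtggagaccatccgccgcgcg
Ccnd2: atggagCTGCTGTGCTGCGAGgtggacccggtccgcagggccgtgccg
Ccnd3: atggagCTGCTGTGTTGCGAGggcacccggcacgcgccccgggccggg
Beyond this stretch the cyclin genes differ enough for reads to be assigned. Over the aligned coding sequence, identity was 72.4% between Ccnd1 and Ccnd2, 68.8% between Ccnd1 and Ccnd3 and 70.7% between Ccnd2 and Ccnd3. The longest run of bases that any pair of their transcripts shared was 20, between Ccnd1 and Ccnd2. Cdk4 and Cdk6 were 70.8% identical with a longest shared run of 20 bases, and Cdkn2c and Cdkn2d 63.7% identical with a longest run of 13 bases. Cdkn1a and Cdkn1b were 65.6% identical with a longest shared run of 23 bases.

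Some upstream sequences are given for the inhibitors and the cyclin that differed between the libraries. RefSeq windows of 250 bases before to 50 bases after a start site (GRCm38.p6) were found for 7 of the 10 genes. None was matched for Ccnd1, Ccnd2 or Rb1. Cdkn1a, Cdkn2c and Ccnd3 each have 2 annotated start sites, and gene counts do not show which one was used. The stretches leave out bases annotated as exon in GENCODE M21. For Cdkn1a the stretch lies before the upstream start site (chr17:29090729-29090975, plus strand), with p53 half-site matches in capitals. For Cdkn2c (chr4:109665373-109665609, minus strand) and Ccnd3 (chr17:47593217-47593435, plus strand) it lies before the downstream start site, and the capitals in Ccnd3 mark the GC box.
Cdkn1a: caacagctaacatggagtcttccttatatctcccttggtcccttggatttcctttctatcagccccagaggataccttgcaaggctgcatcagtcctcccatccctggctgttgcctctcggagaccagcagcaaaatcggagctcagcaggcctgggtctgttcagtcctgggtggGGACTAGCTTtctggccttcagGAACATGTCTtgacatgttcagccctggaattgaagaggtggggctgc
Cdkn2c: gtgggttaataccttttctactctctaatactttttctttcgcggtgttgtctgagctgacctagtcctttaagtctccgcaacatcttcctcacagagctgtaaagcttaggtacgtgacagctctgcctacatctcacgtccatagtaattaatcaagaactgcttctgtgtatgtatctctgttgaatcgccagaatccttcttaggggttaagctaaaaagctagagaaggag
Ccnd3: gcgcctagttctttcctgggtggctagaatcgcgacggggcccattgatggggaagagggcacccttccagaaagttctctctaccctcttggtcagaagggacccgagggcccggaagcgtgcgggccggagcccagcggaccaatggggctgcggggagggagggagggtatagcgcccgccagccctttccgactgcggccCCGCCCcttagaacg
The windows of these 7 genes, 10 in all, were searched on both strands for the E2F site (TTTCCCGC, TTTGGCGC, TTTCGCGC or TTTGCCGC), the GC box (GGGCGG), the interferon elements GAS (TTCNNNGAA) and ISRE, the AP-1 site (TGANTCA), the CHR element (TTTGAA) and the p53 half-site. Only the GC box and the p53 half-site were found. The p53 half-site had 2 matches in the upstream Cdkn1a window, 73 to 64 and 51 to 42 bases before the start site, and 1 match in the Cdkn2d window, which overlaps a GC box. Of all 32851 windows in the RefSeq table, 8.4% hold a p53 half-site, 35.7% a GC box and 2.3% the E2F letters. A match is a description of these letters and shows no binding.

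The T403A library held 18658381 counts and the WT library 16033032 counts, and 13547 and 13205 genes had at least 1 count. Values are CPM, the usual depth-normalised unit, here relative to the TMM-scaled library total. Ratios are T403A over WT with exact 95% intervals from the pair of counts (Clopper-Pearson). With 1 library per genotype nothing could be checked in replicates and p-values are not printed. The intervals cover counting error only, so what is compared is this pair of libraries rather than the genotypes. A gene was measured at a summed count of at least 20, and called higher or lower where it differed by 1.5-fold or more with an interval that excluded 1. Of 11199 measured genes, 13.5% were called higher and 10.8% lower by this rule. At 2-fold the shares were 7.21% higher and 6.08% lower. Stat2 was at 84.4 CPM in the T403A library and 376 CPM in the WT library, 4.46-fold lower in T403A (4.22 to 4.71). A substitution is not a deletion, and the labels do not say how it was made, so this level does not show which library carries it.

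All 8 macrophage markers were detected, between 87.9 and 29804 CPM in the T403A library and between 127 and 36620 CPM in the WT library. Of the 8, 3 were called lower in T403A, none higher and 5 neither, with log2 ratios from -1.68 to 0.33. Of all measured genes, 10.8% were called lower and 13.5% higher. The most abundant of the 8 was Lyz2. Adgre1, 1 of those called lower, was at 1541 CPM in T403A and 2845 CPM in WT. Cd14 was at 585 CPM in T403A and 1878 CPM in WT, and Itgam, which shares 68.7% of its exon bases with a gene model on the same strand, was at 168 CPM in T403A and 342 CPM in WT. The 8 neutrophil markers summed to 11.3 CPM in T403A and 8.73 CPM in WT, with Ly6g and Elane at 0 counts in both. Of these, S100a9 had 77 counts in T403A and 28 in WT, Ltf 64 in T403A and 25 in WT, and Camp 10 in T403A and 22 in WT. The 8 B and T cell markers summed to 6.67 and 15.9 CPM, of which the gene Cd4 gave 5.37 CPM in T403A and 15.2 CPM in WT, and Cd3e, Cd3d and Cd8a were at 0 in both libraries. The 6 dendritic cell markers summed to 1.15 CPM in T403A and 2.13 CPM in WT, with Xcr1 at 6 counts in T403A and 19 in WT. The 8 erythroid and megakaryocyte markers summed to 7.72 CPM in T403A and 36.9 CPM in WT, mostly from the platelet chemokine gene Pf4. The 6 stem and progenitor markers summed to 5.42 CPM in T403A and 71.1 CPM in WT. Of these, the interferon-responsive gene Ly6a had 26 counts in T403A and 1001 counts in WT, and so made up most of the WT sum. Among the 5 stem and progenitor markers that were measured, 1 was called higher, 3 lower (Ly6a, Cd34 and Myb) and 1 neither. Kit, the stem cell factor receptor gene, was the one called higher, with 23 counts in T403A and 4 in WT. Cd34 had 5 counts in T403A and 15 in WT, and Myb 7 in T403A and 21 in WT. The 8 stromal and endothelial markers summed to 7.12 CPM in T403A and 17.0 CPM in WT, with Kdr at 70 counts in T403A and 162 in WT and Pdgfrb at 15 in T403A and 41 in WT. The part of other cells in the results below was not tested.

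Among the 10 genes, 3 were called higher, 3 lower and 4 neither, all 10 having passed the count minimum. Over all measured genes the shares were 13.5% higher and 10.8% lower. The median log2 ratio of the 10 genes was 0.02, and over all measured genes it was 0.01. At 2-fold under TMM scaling, Cdkn2c and Cdkn2d were called higher and Ccnd1 and Ccnd2 lower, against 7.21% and 6.08% of all measured genes. With library totals the Ccnd1 ratio was 0.519, which does not reach 2-fold. Under TMM scaling the 10 genes summed to 489 CPM in T403A and 491 CPM in WT. In bulk RNA, fewer cells of a type and less RNA per cell cannot be told apart, and this holds for every gene below.

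**Figure D1:**
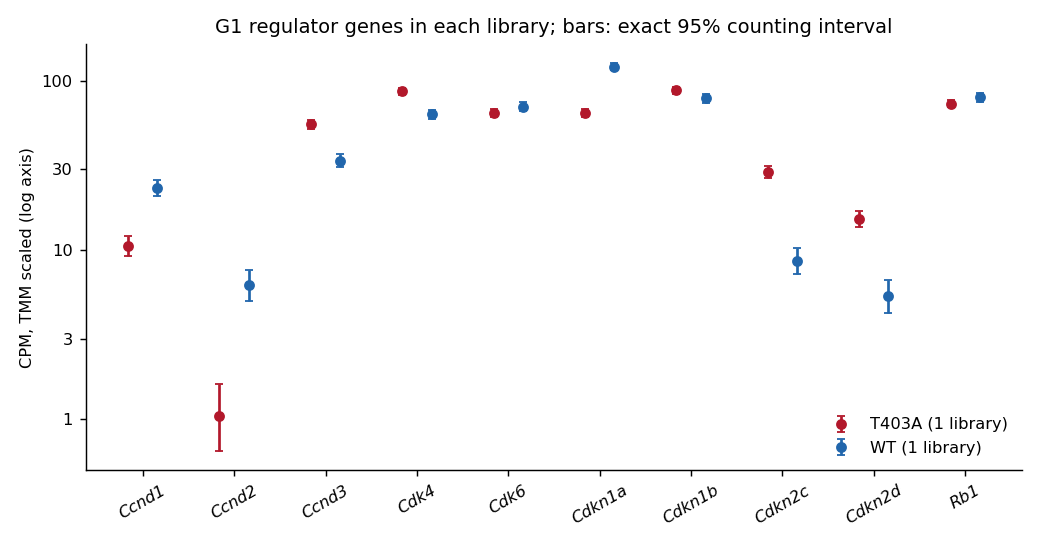
Level of each of the 10 genes in the T403A library (red, left of each pair) and the WT library (blue, right), in CPM on a log axis, with exact 95% counting intervals. Ccnd2 had the lowest T403A level at 1.05 CPM, and the T403A and WT intervals of Cdkn2c and Cdkn2d lie far apart.

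The D-type cyclins differed in opposite directions. Ccnd1, the cyclin that growth factor signalling through the MAP kinase pathway classically induces, had 212 counts (10.6 CPM) in the T403A library and 351 counts (23.4 CPM) in the WT library. It was 2.20-fold lower in T403A (interval 1.85 to 2.62, log2 ratio -1.14). Ccnd2, the least abundant of the 10 per length in both libraries, had 21 counts (1.05 CPM) in T403A and 93 counts (6.20 CPM) in WT.
Its level was 5.89-fold lower in T403A (3.64 to 9.95, log2 ratio -2.53), and the width of the interval comes from the 21 counts. Ccnd3, the D-type cyclin most closely tied to blood cell lineages, went the other way, with 1103 counts (55.3 CPM) in T403A and 507 counts (33.8 CPM) in WT. It was 1.64-fold higher in T403A (1.47 to 1.82, log2 ratio 0.71).

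Because the cyclin genes differ in length, their levels were set against each other per kilobase of the deposited gene length. On this scale Ccnd3 made up 72.7% of the D-type cyclin level in T403A and 40.6% in WT. Ccnd1 made up 26.0% in T403A and 52.4% in WT, and Ccnd2 1.29% in T403A and 6.95% in WT. Per length, the most abundant D-type cyclin transcript was thus Ccnd3 in the T403A library and Ccnd1 in the WT library. In CPM without this correction, Ccnd3 was the most abundant in both libraries, with 33.8 CPM in WT against 23.4 CPM for Ccnd1. Which cyclin led in WT therefore depends on the deposited length, which is the union of all annotated exons. The summed level per length was 8.67 CPM per kilobase in T403A and 9.48 CPM per kilobase in WT, a ratio of 0.915. Without the length correction the ratio of the sums was 1.06, so the sum has no direction that holds in both forms.

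The shift within the family needs no scaling between libraries, since the genes of 1 library share its depth. Per length, Ccnd3 was 2.79 times Ccnd1 in the T403A library (interval 2.41 to 3.25) and 0.775 times Ccnd1 in the WT library (0.675 to 0.891). The Ccnd3 to Ccnd1 ratio was therefore 3.60-fold higher in T403A (2.93 to 4.42). The Ccnd3 to Ccnd2 ratio was 9.63-fold higher in T403A (5.86 to 16.5). The Ccnd1 to Ccnd2 ratio was 2.67-fold higher (1.59 to 4.66), as Ccnd2 differed more than Ccnd1.

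**Figure D2:**
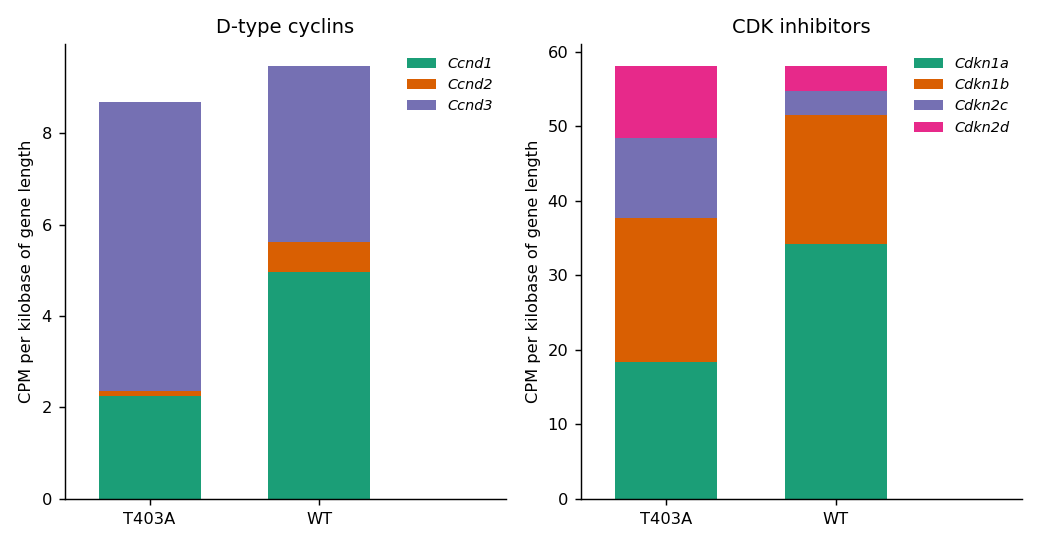
Stacked levels in CPM per kilobase of gene length for the D-type cyclins (left panel) and the CDK inhibitors (right panel), T403A library left and WT library right in each panel. Ccnd3 takes 72.7% of the D-type cyclin bar in T403A and 40.6% in WT. The inhibitor bars are of nearly equal height at 58.1 CPM per kilobase each, which depends on the deposited lengths and the TMM scaling.

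The kinases that the D-type cyclins activate differed little. Cdk4 had 1730 counts (86.8 CPM) in T403A and 952 counts (63.5 CPM) in WT. It was 1.37-fold higher in T403A (1.26 to 1.48), which does not reach 1.5-fold. Scaled by library totals in place of TMM, Cdk4 was 1.56-fold higher and was called. Cdk6 had 1296 counts (65.0 CPM) in T403A and 1058 counts (70.5 CPM) in WT, a ratio of 0.922 (0.849 to 1.00) that became 1.05 with library totals.
Per length, Cdk4 was the more abundant kinase transcript in both libraries, with 26.7 CPM per kilobase in T403A and 19.5 in WT, against 4.65 and 5.04 for Cdk6. In CPM without this correction, Cdk4 was the more abundant in T403A and Cdk6 in WT, so the order in WT depends on the deposited lengths. The Cdk4 to Cdk6 ratio per length, which needs no scaling between libraries, was 5.75 in T403A and 3.87 in WT, a 1.48-fold difference (1.32 to 1.66).

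The inhibitors differed in both directions. Cdkn2c (p18), which together with p19 makes up the INK4 members found in many tissues, had 577 counts (28.9 CPM) in T403A and 130 counts (8.67 CPM) in WT. It was 3.34-fold higher in T403A (2.76 to 4.07, log2 ratio 1.74). Cdkn2d (p19) had 305 counts (15.3 CPM) in T403A and 80 counts (5.33 CPM) in WT, and was 2.87-fold higher (2.24 to 3.72, log2 ratio 1.51). Between Cdkn2c and Cdkn2d no difference in response was resolved. Their ratio to each other per length was 1.11 in T403A and 0.952 in WT, and the difference of 1.16-fold had an interval of 0.841 to 1.61, which includes 1.

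Cdkn1a (p21), the inhibitor best known as a p53 target, was the most abundant of the 10 per length in the WT library and differed in the opposite direction from Cdkn2c and Cdkn2d. It had 1297 counts (65.0 CPM) in T403A and 1820 counts (121 CPM) in WT, and was 1.87-fold lower in T403A (ratio 0.536, interval 0.499 to 0.576, log2 ratio -0.90). Cdkn1b (p27), which holds resting cells out of the cycle, had 1754 counts (88.0 CPM) in T403A and 1184 counts (78.9 CPM) in WT, a ratio of 1.11 (1.03 to 1.20) whose interval excluded 1 but which did not reach 1.5-fold. Per length, Cdkn1b and Cdkn1a were close to level in T403A, with 19.3 and 18.3 CPM per kilobase and an interval of their ratio of 0.982 to 1.14. In WT they stood at 17.3 and 34.1 CPM per kilobase. The Cdkn1b to Cdkn1a ratio was 2.08-fold higher in T403A (1.87 to 2.31).

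The makeup of the inhibitor pool differed at a sum that was equal under TMM scaling, 58.1 CPM per kilobase in both libraries for the 4 inhibitors. Cdkn1a gave 31.5% of the sum in T403A and 58.8% in WT. Cdkn2c gave 18.5% in T403A and 5.55% in WT, and Cdkn2d 16.7% in T403A and 5.83% in WT. The Cdkn2c to Cdkn1a ratio was 6.23-fold higher in T403A (5.07 to 7.69), and the Cdkn2d to Cdkn1a ratio 5.35-fold higher (4.12 to 7.00), with no scaling involved.

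Rb1, which encodes the protein that the cyclin D kinases phosphorylate, had 1465 counts (73.5 CPM) in T403A and 1198 counts (79.9 CPM) in WT. The ratio was 0.920 (0.852 to 0.994), and 1.05 with library totals, so no direction is given for it.

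**Figure D3:**
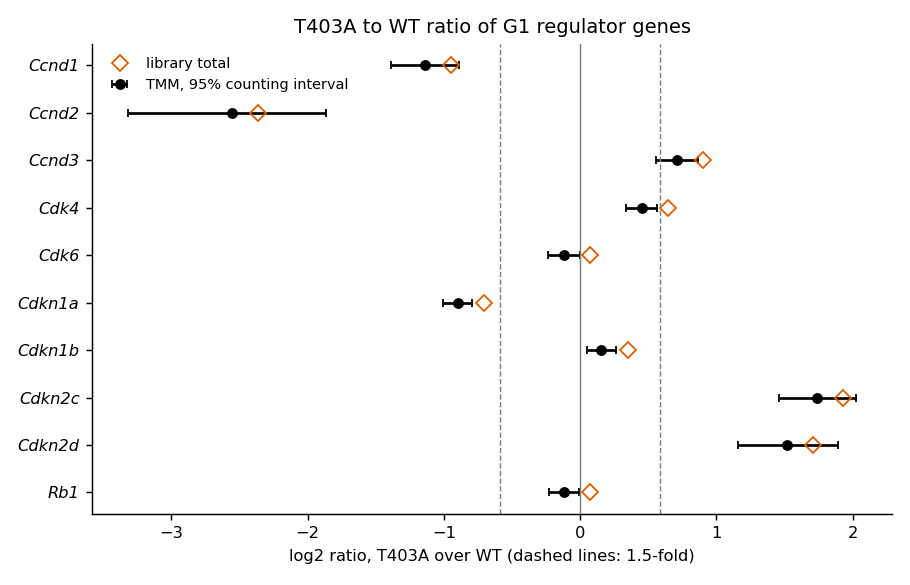
T403A over WT ratio of the 10 genes on a log2 axis, with exact 95% counting intervals under TMM scaling (black) and the ratio under scaling by library totals (open diamonds); dashed lines mark 1.5-fold. Cdkn2c and Cdkn2d lie right of the upper line and Ccnd1, Ccnd2 and Cdkn1a left of the lower line under both scalings, Cdk4 passes the upper line with library totals, and Cdk6 and Rb1 change side of 0.

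The order of the 10 levels per length differed between the libraries. In T403A, Cdk4 stood first, at 26.7 CPM per kilobase, followed by Cdkn1b, Cdkn1a, Rb1 at 12.2, Cdkn2c at 10.8, Cdkn2d at 9.72, Ccnd3 at 6.30, Cdk6, Ccnd1 at 2.26 and Ccnd2 at 0.112 CPM per kilobase. The neighbours Cdkn1b and Cdkn1a, and Cdkn2c and Cdkn2d, did not differ beyond counting error. In WT, Cdkn1a stood first, at 34.1 CPM per kilobase, followed by Cdk4, Cdkn1b, Rb1 at 13.3, Cdk6, Ccnd1 at 4.97, Ccnd3 at 3.85, Cdkn2d at 3.39, Cdkn2c at 3.23 and Ccnd2 at 0.659 CPM per kilobase. There Cdk6 and Ccnd1, Ccnd3 and Cdkn2d, and Cdkn2d and Cdkn2c did not differ beyond counting error. Per length, Cdkn2c and Cdkn2d thus stood above Ccnd3, Cdk6 and Ccnd1 in T403A, and below Cdk6 and Ccnd1 in WT. The order between genes depends on the deposited lengths. In CPM, Cdk6 (65.0) and Ccnd3 (55.3) stood above Cdkn2c (28.9) and Cdkn2d (15.3) in T403A, and Ccnd1 (10.6) below them.

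Ranked by log2 ratio among the 11199 measured genes, Ccnd2 was number 187 from the lowest, Ccnd1 number 594 and Cdkn1a number 795. At the other end Ccnd3 was number 9848, Cdkn2d number 10790 and Cdkn2c number 10872. Among protein-coding genes of like level (mean CPM within 2-fold), those nearest to Ccnd1 in log2 ratio were Gdf3 (-1.15), Spred2 (-1.15) and Arpin (-1.16). Nearest to Ccnd2 were Acp5 (-2.57), Gpr18 (-2.60) and Kcna3 (-2.61). Nearest to Cdkn2c were Rragd (1.73), Mgst3 (1.74) and Abhd14b (1.74), and nearest to Cdkn2d were Dennd2c (1.53), Cdca8 (1.54) and, just below it, Arhgef39. With 2 libraries this likeness is 1 number per gene, picked from between 1435 and 3319 candidates.

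**Figure D4:**
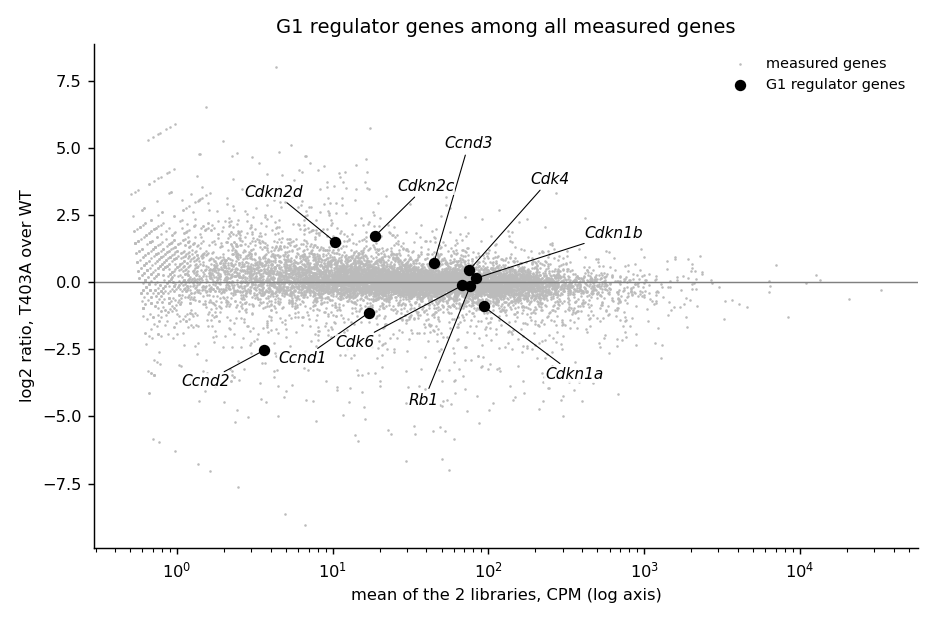
Each grey point is 1 of the 11199 measured genes, with the mean CPM of the libraries on a log axis and the log2 ratio of T403A over WT (0.5 added to each count) on the vertical axis; black points are the 10 G1 genes. Ccnd2 lies at -2.53 on a mean of 3.63 CPM and Cdkn2c at 1.74 on a mean of 18.8 CPM, while Cdk4, Cdk6, Cdkn1b and Rb1 sit in the dense band around 0.

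Of 30 other genes of the G1 to S transition, 29 were measured, and 6 were called higher, none lower and 23 neither, with a median log2 ratio of 0.06. Of all measured genes, 13.5% were called higher and 10.8% lower. E2f2, an activating E2F, was at 68.7 CPM in T403A and 18.3 CPM in WT, 3.75-fold higher (3.29 to 4.28). Cks1b, a small subunit that helps SKP2 mark p27 for degradation, was at 9.78 CPM in T403A and 3.27 CPM in WT, 2.99-fold higher (2.18 to 4.18). Tfdp2, a dimer partner of E2F proteins, was at 29.5 CPM in T403A and 12.1 CPM in WT, 2.45-fold higher (2.07 to 2.91).

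The other 3 called genes passed narrowly. Ccne1, the cyclin that activates CDK2 late in G1, was 1.62-fold higher on 58 counts in T403A and 27 in WT (1.01 to 2.65). Cdkn1c (p57), the remaining Cip/Kip gene, was at 6.92 CPM in T403A and 4.40 CPM in WT, 1.57-fold higher (1.16 to 2.14). Cdk2 was at 44.9 CPM in T403A and 29.7 CPM in WT, 1.51-fold higher (1.35 to 1.70). The pocket protein genes Rbl1 and Rbl2 had ratios of 1.03 each, E2f1 of 1.12, E2f3 of 0.892 and E2f4 of 0.853. The remaining INK4 genes were scarce: Cdkn2b was at 1.25 CPM in T403A and 1.40 CPM in WT, and Cdkn2a, with 9 counts in T403A and 2 in WT, was not measured. The genes of cyclin D turnover, Fbxo4, Ambra1 and Gsk3b, had ratios of 0.877, 0.841 and 0.938.

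Genes that E2F factors activate were often higher in T403A. Of 19 measured targets 12 were called higher, none lower and 7 neither, with a median log2 ratio of 0.73. The shares over all measured genes were 13.5% higher and 10.8% lower. Ccna2, the cyclin of S phase, was at 26.9 CPM in T403A and 1.27 CPM in WT, 21.2-fold higher (13.5 to 35.5). Rrm2, a ribonucleotide reductase subunit, had 309 counts in T403A and 30 counts in WT, 7.75-fold higher (5.32 to 11.7). Pcna, the replication clamp and the most abundant of the list, was at 143 CPM in T403A and 202 CPM in WT, a ratio of 0.707 (0.672 to 0.744) that was below 1 beyond counting error but did not reach 1.5-fold. The same held for Cdt1, with a ratio of 0.701 (0.608 to 0.808), and Mcm6, with a ratio of 0.881 (0.798 to 0.973).

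All 10 proliferation markers were called higher in T403A, against 13.5% of all measured genes. They ranged from 3.25-fold for Aurka to 56.7-fold for Cenpf (29.7 to 124), which had 678 counts in T403A and only 9 in WT. The counts of the 10 markers summed to 498 CPM in T403A and 81.9 CPM in WT. Mki67 was at 258 CPM in T403A and 54.8 CPM in WT, and Birc5 had 258 counts in T403A and 7 in WT. These lists were chosen with an earlier account of the same data known, which had already described higher mitotic genes in T403A, so they are no independent support. The part of the cycling state in the levels of Ccnd1, Ccnd2, Ccnd3, Cdkn1a, Cdkn2c and Cdkn2d was not tested.

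**Figure D5:**
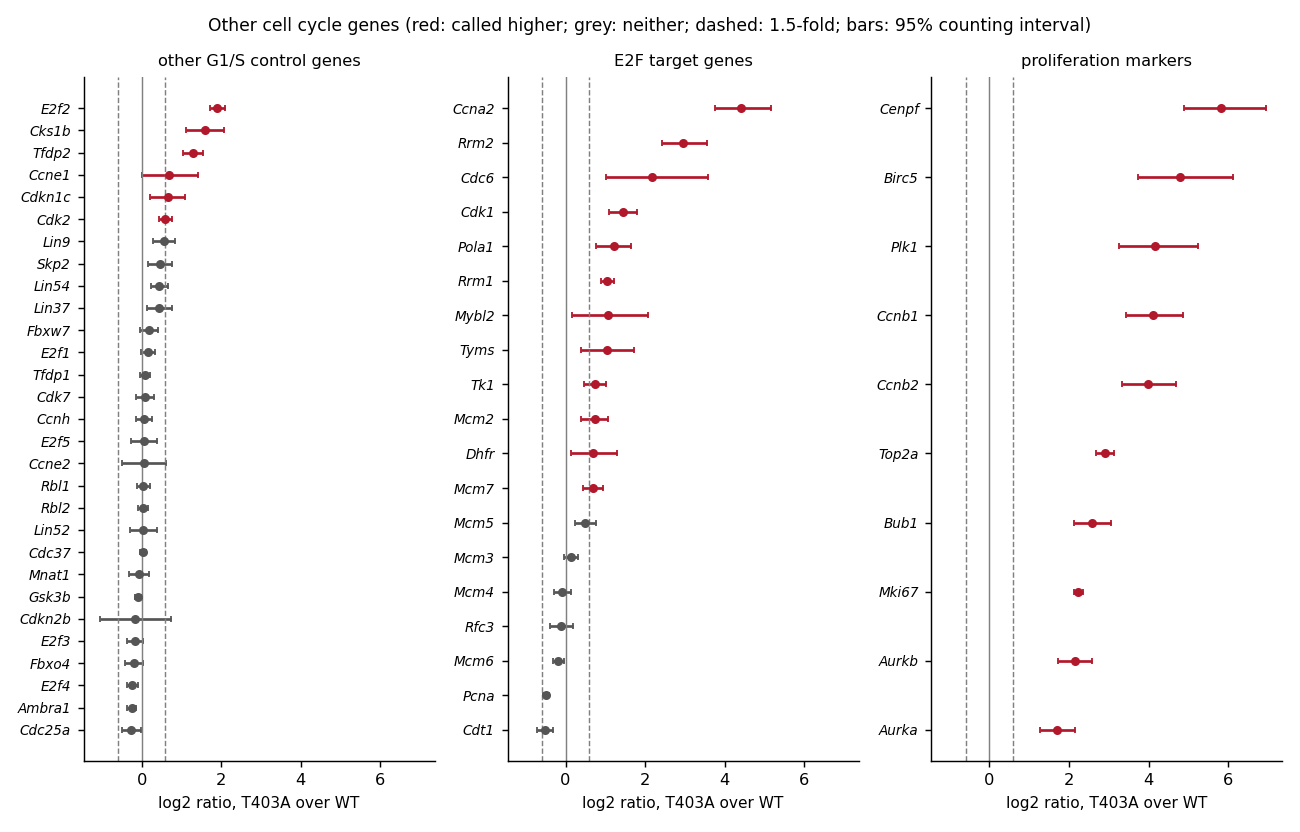
T403A over WT ratios on a log2 axis for the measured genes of the lists of other G1/S control genes, E2F targets and proliferation markers, with exact 95% counting intervals; red genes were called higher, grey genes neither. In the left panel 6 of 29 genes are red, in the middle panel 12 of 19, and in the right panel all 10.

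Overlapping genes limit several of these values, since the sources used here do not give the strand setting of the counting. Ccnd1 (chromosome 7, 144929931 to 144939925) shares 23.4% of its exon bases with the opposite-strand gene LTO1, which had 429 counts in T403A and 351 in WT. Cdk4 (chromosome 10, 127063534 to 127067920) shares 19.7% with Tspan31, also on the opposite strand. Rb1 (chromosome 14, 73183673 to 73325822) shares 8.11% with Rcbtb2 and 6.78% with Lpar6, and Cdkn1a (chromosome 17, 29090976 to 29100727) shares 7.68% with an unnamed gene model. Ccnd2 (chromosome 6, 127125162 to 127152193), Ccnd3 (chromosome 17, 47505051 to 47599691) and Cdk6 (chromosome 5, 3341485 to 3531008) share between 2.63% and 4.11% with any single neighbour. Cdkn1b (chromosome 6, 134920401 to 134925513), Cdkn2c (chromosome 4, 109660876 to 109667189) and Cdkn2d (chromosome 9, 21288410 to 21291407) share none. Of the other genes named with values, Ccna2 shares 12.5% with Exosc9, Rbl2 11.8% with a gene model and 9.17% with Aktip, and Cdkn1c 30.7% with a gene model on the opposite strand. All 10 genes are protein-coding, and for each the deposited length equals the union of its GENCODE M21 exons.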

How the data were processed

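RNA was sequenced from 1 T403A and 1 WT library of untreated macrophages. The authors deposited whole-number read counts per Ensembl gene with a gene length in bases, per the file headers. The build GRCm38 and the tools HTSeq 0.9.1, DESeq 1.30.0, HISAT2 and cutadapt 1.15 are listed, without roles, per the submitters' processing notes. The sources used here do not give the annotation release or strand setting. Columns were matched to samples by title.

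Symbols came from a table of Ensembl identifiers (21949 of 22060 genes); a symbol held by several identifiers went to the one with most counts. Positions came from GENCODE M21, whose exon unions equalled the deposited length for 96.9% of shared genes. Counts were scaled by TMM (edgeR 4.0.16, R 4.3.3). Ratios and their exact 95% Clopper-Pearson intervals, exact Poisson intervals of levels and conditional intervals of ratios of ratios were computed with scipy 1.17.1; log2 ratios add 0.5 to each count. Promoter sequences are from RefSeq, and alignments used Biopython 1.88. A count of 0 allows up to 3 counts, 0.150 CPM in T403A and 0.200 CPM in WT. The interval scoring was tested on simulated libraries with counting error alone, scaled by library totals. Such a test cannot cover variation between libraries or the TMM scaling.

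With 1 library per genotype no test was run. The members and lists were chosen with earlier results of these data known. Named were all 10 members, any gene of the list of other G1/S genes, and from each other list up to 2 called genes per direction with the largest ratio and the gene with the highest summed count, plus for members called at 2-fold the 3 nearest genes of like level. Genes named beyond this rule (Aurka, Cdt1, Mcm6, Map2k1, Adgre1, Myb, marker genes at 0) are illustrations chosen after their values were seen. The ratios between members within a library were also chosen after seeing the data. Alternatives were 3 other scalings, other count minimums, a 2-fold rule and levels without length correction.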

Additional observations from a re-analysis of the deposited data

How the results depend on the processing

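Ccnd1, Ccnd2, Cdkn1a, Ccnd3, Cdkn2c and Cdkn2d kept their call at 1.5-fold under library totals, DESeq2 1.42.0 size factors, the upper quartile and both other count minimums. Scaling by library totals moved the median log2 ratio of all measured genes to 0.20, against 0.01 with TMM, and gave 2290 genes higher and 890 lower, against 1515 and 1214. It called 4 of the 10 genes higher (Cdk4 was added) and 10 of the 29 other G1/S genes higher, against 6. At 2-fold, 808 genes were higher and 681 lower, 3 of the 29 other G1/S genes were higher, and Ccnd3 and Cdkn1a lost their call. Ccnd1 reached 2-fold with TMM but not with library totals, where its ratio was 0.519. The ratio of the summed D-type cyclin level, 0.915 as reported, was 1.06 without length correction and 1.05 with library totals. No paired analysis was possible because each genotype has 1 library, and no library could be left out. Depth limits Ccnd2 most, on 21 counts in T403A.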

Other observations

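Genes of M-CSF signalling towards cyclin D were mostly not called in either direction. Of 13 measured genes 3 were lower in T403A, none higher and 10 neither, with a median log2 ratio of -0.17. Of all measured genes, 13.5% were called higher and 10.8% lower, the shares against which the counts of this and the next lists are read. The M-CSF receptor gene Csf1r, whose exons overlap those of Hmgxb3 on the opposite strand, was at 5503 CPM in T403A and 7146 CPM in WT, within 1.5-fold. Myc, a growth factor-induced transcription factor gene, was at 5.67 CPM in T403A and 12.1 CPM in WT, 2.13-fold lower (1.67 to 2.72). Ets1 was at 4.86 CPM in T403A and 10.1 CPM in WT, 2.07-fold lower. Map2k1, also called lower, was at 113 CPM in T403A and 214 CPM in WT, 1.88-fold lower (1.78 to 1.99).

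Other p53 targets lay on both sides of 1. Of 17 measured genes 2 were higher in T403A, 1 lower and 14 neither, near the 13.5% and 10.8% of all measured genes, with a median log2 ratio of 0.09. Gdf15 was at 32.3 CPM in T403A and 7.60 CPM in WT, 4.25-fold higher, and the cell death gene Bbc3 was 1.65-fold higher. Plk3 was 2.07-fold lower, and Mdm2, which marks p53 for degradation, was at 155 CPM in T403A and 207 CPM in WT, a ratio of 0.750 (0.713 to 0.788). Among 12 FOXO factors and targets other than Cdkn1b, 2 were higher, 1 lower and 9 neither, again near the shares of all measured genes, with a median of 0.35. Catalase (Cat) was at 2084 CPM in T403A and 1072 CPM in WT, Sesn3 was 1.81-fold higher, and Sod2, which inflammatory signals also induce, was at 357 CPM in T403A and 1099 CPM in WT.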
